A study of Mus musculus with 35 samples.

Results

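The strain difference in the anterior amygdala of standard-housed female mice was described here from 9 of the 35 libraries of the series, 5 of B6D2F1N and 4 of C57BL/6J mice, 1 library per mouse. The libraries were chosen by their genotype, housing and tissue labels. C57BL/6J is an inbred strain, and B6D2F1N mice are F1 hybrids of a C57BL/6 and a DBA/2 parent, so that each hybrid carries 1 genome of each. All 9 mice lived in the control environment without the playground that the enriched mice entered for 1 h per day. They were trained from postnatal day 70 in a cognitive judgment bias task, assigned to their housing from day 77, trained for 37 to 90 days and tested on 5 days. By that test, 3 B6D2F1N mice were called optimist, 1 pessimist and 1 n.a., against 1 optimist and 3 n.a. among the C57BL/6J mice. The training time of each mouse was not used here, so that it cannot be told apart from strain.

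Cells of the basolateral amygdala were cut out of brain sections with a laser, and their polyadenylated RNA was amplified with a low-input kit and sequenced as single reads of 72 bases. The methods of the study give the anterior portion a bregma range that lies caudal to that of the posterior portion, and the names are used here only as the labels give them. Gene counts summed to 17456007 in the shallowest and 22740018 in the deepest library, and 19961 to 22788 genes were detected with 1 count or more. In these bulk samples, fewer cells of a type and less RNA per cell cannot be told apart.

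The basolateral amygdala holds mostly glutamatergic projection neurons with a smaller share of GABAergic interneurons, and it is known for its part in fear, reward learning and the appraisal of ambiguous cues. Excitatory neuron markers were present in every library, with a summed level of 8 genes between 2966 and 3656 CPM (the count of a gene relative to the depth of its library, scaled by TMM factors) in C57BL/6J and between 1847 and 4077 CPM in B6D2F1N. The 2 lowest of these sums were those of B6D2F1N 5 and B6D2F1N 3. In B6D2F1N 3, Hcrt and Pmch, neuropeptide genes of the lateral hypothalamus, stood at 3771 and 2294 CPM, against at most 10.5 and 11.4 CPM in the other 8 libraries. Prl, the pituitary prolactin gene, stood at 85.2 CPM in B6D2F1N 5 and at most at 4.53 CPM elsewhere. Xist, which is transcribed from the inactive X chromosome of female cells, had 0 counts in B6D2F1N 1 and 1191 to 2155 in the other 8 libraries, and the 4 Y-linked genes examined had 1 count in all, in B6D2F1N 5. C57BL/6J 2 and B6D2F1N 1 lay farthest from the other libraries in a multidimensional scaling. It rested on the genes that differed most between each pair of libraries. The counts below are therefore also given without these libraries.

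Of 24305 genes tested, 90 (0.37%) were differentially expressed between the strains at an adjusted p of at most 0.05, 79 higher (0.325%) and 11 lower (0.0453%) in B6D2F1N. These DEGs were of very different kinds. Pseudogenes made up 46 of them, 45 higher and 1 lower, which was 2.32% of the 1985 pseudogenes tested. Protein-coding genes without a near-identical copy gave 33 DEGs, 25 higher and 8 lower, or 0.215% of 15340. A further 5 were protein-coding genes with a near-identical copy (0.574% of 871), and 6 were of other types, mostly long noncoding RNAs (0.101% of 5926). Among 183 genes of other types with a copy, edgeR called 0, 10 had an unadjusted p under 0.05, and DESeq2 called 1. An unadjusted p under 0.05 was reached by 2187 of all 24305 genes (9%), against which such counts are read below. A gene was taken to have a copy when at least 20% of its 72-base windows aligned to another gene with at most 2 mismatches. The share is taken over the gene's own exons, so a long gene with a short copy can fall below 20%. Atp6v0c (9.68%, shared with Atp6v0c-ps2) and Lsm12 (15.4%, shared with Gm9727) thus stand among the DEGs without a copy.

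**Figure D1:**
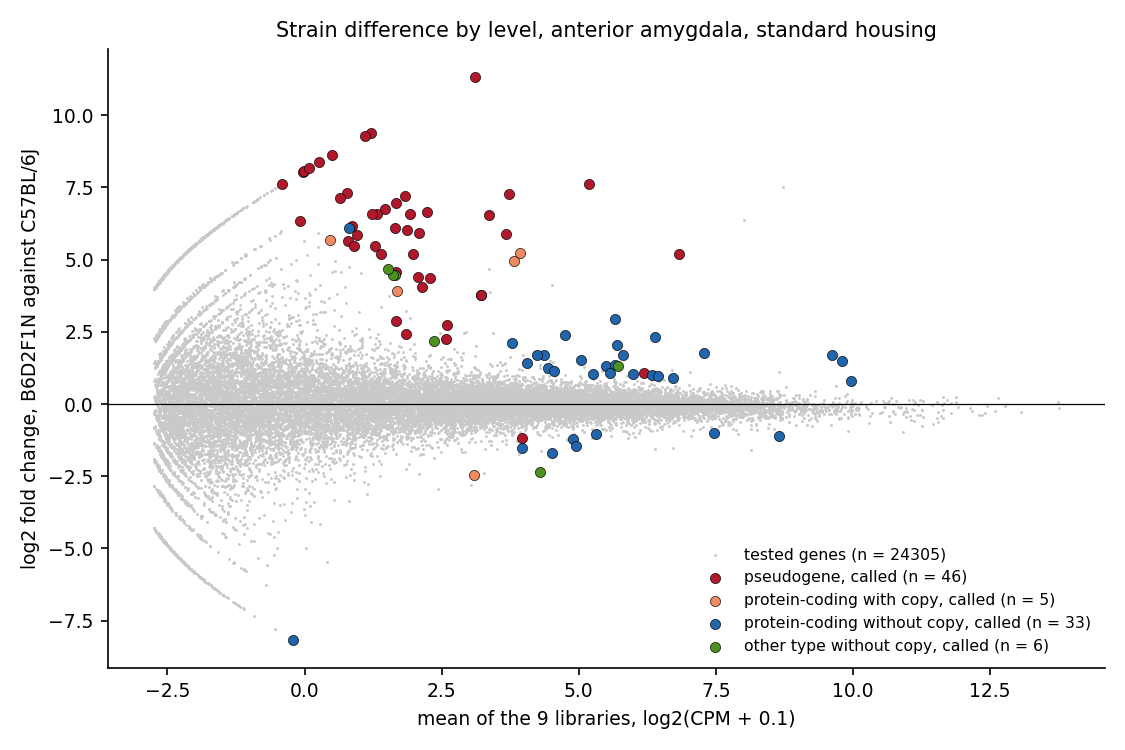
Log2 fold change between strains (vertical axis, B6D2F1N over C57BL/6J) against mean level over the 9 libraries (horizontal axis, log2 of CPM plus 0.1). Grey points are the 24305 genes tested and colored points the 90 DEGs by class, with the pseudogenes lying above most protein-coding DEGs at a median log2 fold change of 6.13.

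The size of the difference among the DEGs also varied between classes. A gene near 0 counts in 1 strain passes only with a large fold change, so these sizes are not independent of level. The 45 higher pseudogenes had log2 fold changes between 1.07 and 11.31, with a median of 6.16, and mean levels of 0 to 45.3 CPM in C57BL/6J (median 0.0705) against 1.18 to 201 CPM in B6D2F1N (median 5.40). The 25 higher protein-coding genes without a copy had log2 fold changes between 0.80 and 6.08, with a median of 1.5, at median levels of 24.6 and 69.1 CPM. Over all 24305 genes the median log2 fold change was 0.02, over all pseudogenes tested 0.23, and over all protein-coding genes without a copy -0.01. Of the DEGs, 89 of 90 had strain groups that did not overlap, as had 3.3% of all genes tested. In 9 DEGs, all pseudogenes, every C57BL/6J library had 0 counts, so that the hybrids alone brought them past the filter of 10 counts.

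The number of DEGs was 83 without B6D2F1N 1, 74 without C57BL/6J 2, 74 without B6D2F1N 3 and 72 without B6D2F1N 5. It fell to 60 without C57BL/6J 3. Over the 9 fits that left out 1 library each, 36 to 42 pseudogenes and 16 to 33 protein-coding genes without a copy were DEGs, and 52 of the 90 remained in all 9. With DESeq2, 254 genes passed (1.2% of 21089), among them all 90. Of the 254, 117 were protein-coding genes without a copy, 81 pseudogenes and 19 protein-coding genes with a copy. Of other types, 36 had no copy and 1 had a copy. Pseudogenes were thus the largest class with edgeR but not with DESeq2.

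Of the 46 pseudogene DEGs, 43 had a near-identical copy. A processed pseudogene arises when a spliced mRNA is copied back into the genome, so that it lacks the introns of its source and keeps most of its sequence. A 72-base read from the one can be assigned to the other where the sequences differ by only a base or so, and the reference genome to which the reads were aligned comes from C57BL/6J. By annotation, 40 of the 46 pseudogenes were processed, 3 transcribed processed, 2 unprocessed and 1 transcribed unprocessed. Together with the 5 protein-coding genes, 48 DEGs had a copy. The partner of each was the gene, not overlapping it, that shared most of its windows. This partner was protein-coding in 45 cases, was another pseudogene for Gm5855, Gm9625 and Gm15610, and lay on another chromosome in 44. Of the 48 DEGs, 41 consisted of 1 uninterrupted exon block, and in 16 every window aligned to another gene. Below are 72 bases of 6 partners and of the DEG that copies each, with the differing bases in capitals. Positions are counted from 1 at the 5′ end of the window. The windows shown were picked from those with at most 2 mismatches, so they do not show how close a whole pair is. Of the windows of Gm13394, 100% aligned to Gapdh with at most 2 mismatches and 92.3% without any. For Gm5802 and Snrpn these shares were 55.6% and 0%. The windows of the partners lie in their coding sequence, those of the copies in an exon, and coordinates are on GRCm38 with GENCODE M21 transcripts.

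In the first pair, Atp6v0c (chr17:24164795-24164866, minus strand) and Atp6v0c-ps2 (chr6:37806181-37806252, plus strand) differed by T16C, the base of the partner being given first.
Atp6v0c: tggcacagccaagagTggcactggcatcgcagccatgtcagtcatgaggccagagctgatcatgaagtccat
Atp6v0c-ps2: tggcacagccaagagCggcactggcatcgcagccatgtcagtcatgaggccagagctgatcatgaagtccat
Snrpn (chr7:59985026-59985097, minus strand) and Gm5802 (chr14:62540628-62540699, minus strand) differed by A34C and G49A.
Snrpn: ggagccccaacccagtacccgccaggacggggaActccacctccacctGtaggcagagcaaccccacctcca
Gm5802: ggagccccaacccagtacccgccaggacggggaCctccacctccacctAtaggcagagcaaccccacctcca
Gapdh (chr6:125162957-125163028, minus strand) and Gm13394 (chr2:28934205-28934276, minus strand) differed by A13C.
Gapdh: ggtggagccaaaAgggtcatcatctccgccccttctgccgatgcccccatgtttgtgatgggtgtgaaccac
Gm13394: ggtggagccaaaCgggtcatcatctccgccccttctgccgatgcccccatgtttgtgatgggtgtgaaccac
Psmb5 (chr14:54616588-54616659, minus strand) and Gm3375 (chr7:3181454-3181525, plus strand) differed by T27A and C57T.
Psmb5: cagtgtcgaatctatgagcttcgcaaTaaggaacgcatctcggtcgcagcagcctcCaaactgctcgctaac
Gm3375: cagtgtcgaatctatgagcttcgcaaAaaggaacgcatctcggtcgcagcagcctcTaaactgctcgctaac
Ndufa12 (chr10:94220771-94220842, plus strand) and Gm15920 (chr5:130188706-130188777, plus strand) differed by T67C.
Ndufa12: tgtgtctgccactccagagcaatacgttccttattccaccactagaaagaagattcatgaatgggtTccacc
Gm15920: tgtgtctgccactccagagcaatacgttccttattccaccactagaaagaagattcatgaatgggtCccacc
Rpsa (chr9:120129189-120129260, plus strand) and Rpsa-ps10 (chr3:150073307-150073378, minus strand) differed by T46C and C55T.
Rpsa: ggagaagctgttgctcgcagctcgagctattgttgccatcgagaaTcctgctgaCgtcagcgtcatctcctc
Rpsa-ps10: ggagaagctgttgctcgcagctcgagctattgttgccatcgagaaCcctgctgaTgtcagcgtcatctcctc

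Atp6v0c-ps2 (ENSMUSG00000080242, chr6:37806086-37806550) had the smallest adjusted p of all genes. It measured 5.11, 5.85, 5.66 and 5.30 CPM in the C57BL/6J libraries 1 to 4 and 274, 199.7, 121, 218 and 191 CPM in the B6D2F1N libraries 1 to 5, a log2 fold change of 5.19 ± 0.26 (SE, adjusted p = 3.93e-08). Every hybrid library was far above every C57BL/6J library. Its partner Atp6v0c (ENSMUSG00000024121), which encodes the membrane-embedded c subunit of the vacuolar proton pump, measured 544, 687, 484 and 569 CPM in C57BL/6J and 356, 268, 155, 294 and 263 CPM in B6D2F1N. It was itself a DEG in the opposite direction, with a log2 fold change of -1.10 ± 0.22 (adjusted p = 0.0408). The call on Atp6v0c held in 2 of the 9 fits that left out a library (adjusted p = 0.0242 to 0.141), and 9.68% of its own windows aligned to another gene. The copy took 0.963% ± 0.134 (SD, n = 4) of the CPM of the pair in C57BL/6J and 42.9% ± 0.771 (SD, n = 5) in B6D2F1N. Here and in the pairs below, reads without a unique alignment were not counted. Of the windows of Atp6v0c-ps2, 81.8% matched Atp6v0c without a mismatch. The sum of both was 577 ± 85.3 CPM and 468 ± 128 CPM, and with the reads of copies and partners added, the log2 fold change was -0.30 (adjusted p = 0.778).

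Gm5802 (ENSMUSG00000114488) copies Snrpn, which encodes a spliceosomal protein of neurons. It measured 0.799, 0, 0.263 and 0.273 CPM in C57BL/6J and 47.7, 66.4, 63.3, 65.8 and 82.9 CPM in B6D2F1N (log2 fold change 7.60 ± 0.50, adjusted p = 8.03e-07). Snrpn measured 1364, 774, 1184 and 1121 CPM against 779, 1061, 992, 1090 and 1268 CPM, and these ranges overlapped (log2 fold change -0.10, adjusted p = 0.964). The share of the copy was 0.0263% ± 0.0242 and 5.90% ± 0.176.

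Gm13394 (ENSMUSG00000083773), a copy of the glycolytic enzyme gene Gapdh, had 0 counts in all 4 C57BL/6J libraries and 16.4, 13.9, 15.5, 12.9 and 17.6 CPM in B6D2F1N. It was at least 100.2-fold higher in B6D2F1N, counted against 3 counts per C57BL/6J library (adjusted p = 1.77e-06). Gapdh stood at 129.6 ± 20.0 and 95.9 ± 6.91 CPM (log2 fold change -0.43, adjusted p = 0.539), and the copy held 13.7% ± 0.930 of the pair in the hybrids. Windows of Gm13394 aligned to 206 other genes, more than those of the other 5 copies shown. Its share therefore rests on the reads that could be told apart, not on all reads of the pair.

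Gm3375 copies Psmb5, which encodes a catalytic subunit of the proteasome. It measured 0.107, 0.0513, 0.0877 and 0.0546 CPM in C57BL/6J and 5.79, 7.25, 9.12, 8.04 and 11.0 CPM in B6D2F1N (log2 fold change 6.66 ± 0.54, adjusted p = 9.67e-06), while Psmb5 stood at 45.4 and 32.9 CPM (adjusted p = 0.563). Gm15920, a copy of the complex I subunit gene Ndufa12, measured 0, 0.205, 0.351 and 0 CPM against 15.4, 22.2, 25.5, 22.3 and 33.0 CPM (log2 fold change 7.27 ± 0.62, adjusted p = 1.50e-05). Ndufa12 had a log2 fold change of -0.07 (adjusted p = 0.982). In both pairs the copy was close to 0 in every C57BL/6J library, and it reached 19.8% ± 2.00 and 10.2% ± 0.332 of the pair in the hybrids.

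Rpsa-ps10, a copy of the ribosomal protein gene Rpsa, measured 0.0533, 0.0513, 0.0439 and 0.109 CPM in C57BL/6J and 5.83, 7.88, 6.67, 5.30 and 7.31 CPM in B6D2F1N (adjusted p = 2.44e-05). Gm7172 copies the tubulin gene Tuba1a, and Gm12892 the brain creatine kinase gene Ckb, with log2 fold changes of 5.89 and 6.53 (adjusted p = 2.67e-05 for both). Gm13443, a copy of the glyoxalase gene Glo1, lay at 0.0877 to 0.164 CPM against 3.16 to 5.36 CPM (adjusted p = 0.000473). Glo1, which detoxifies methylglyoxal and is known for copy number differences between inbred strains, stood at 97.7 ± 16.1 and 153 ± 18.9 CPM, with a log2 fold change of 0.64 ± 0.18 that did not pass (adjusted p = 0.261 with edgeR; DESeq2 called it).

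Over the 47 higher copies, the median log2 fold change was 5.93, and that of their partners -0.17, with 35 partners below 0 and 12 above. The partners of 3 copies were DEGs, namely Atp6v0c and the pseudogenes Tma7-ps and Gm8730, partners of Gm15610 and Gm9625, and 15 of the 48 partners had an unadjusted p under 0.05, as had 9% of all genes. The copy held a median of 0.0935% of the pair in C57BL/6J and 5.90% in B6D2F1N. In 40 of the 48 pairs the summed level differed between strains by less than 0.5 on the log2 scale. With the copy so small a part of most pairs, a change in it alone moves the sum little. Where the reads of the copies came from was not tested.

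**Figure D2:**
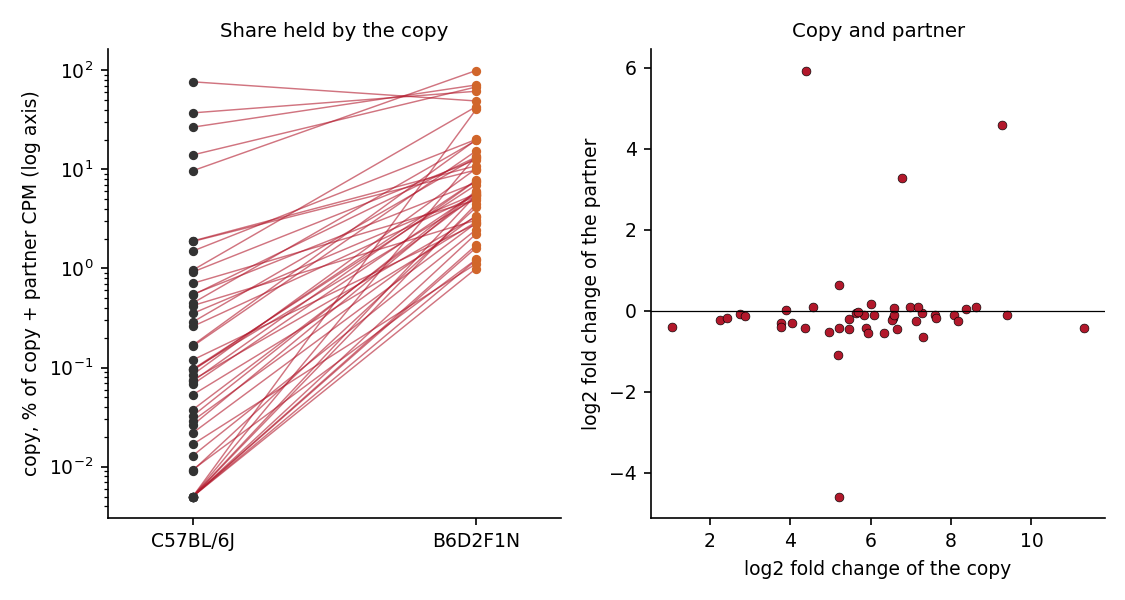
Left, the share of copy plus partner CPM taken by the copy (percent, log axis) in each strain, 1 line per pair, for the 47 copies higher in B6D2F1N, with 9 shares under 0.005 drawn at that value, 8 of them shares of 0. Right, the log2 fold change of each copy against that of its partner, in which 35 of the 47 partners lie below 0.

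When the counts of every gene and its copies were added and the comparison was fitted again, 24 of 22839 sums or single genes passed (0.105%), 19 higher and 5 lower. All 24 came from the 90 DEGs or sums that held them. Of the 52 DEGs that entered a sum, 2 sums passed, those of Gabra2 and Nat8f4, and of the 38 that entered none, 22 passed. By class these were 17 protein-coding genes without a copy, 1 protein-coding gene with a copy, 4 of other types and 2 pseudogenes, Gm14513 and Gm12716, which had no copy by the definition used. Gm12716 had 0 counts in every C57BL/6J library and 1.3 to 1.98 CPM in the hybrids. Most copies are a small part of their sum, so a sum that did not pass says little about the copy itself.

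The DEGs with a copy also included genes annotated as protein-coding. Eno1b, annotated as a protein-coding enolase gene, measured 0.959, 0.513, 0.965 and 0.71 CPM in C57BL/6J and 23.8, 26.4, 19.8, 29.3 and 24.4 CPM in B6D2F1N (log2 fold change 4.96 ± 0.32, adjusted p = 8.03e-07), while Eno1 stood at 1031 ± 149 and 718 ± 109 CPM (log2 fold change -0.52, adjusted p = 0.529). Tpm3-rs7, an intronless relative of the tropomyosin gene Tpm3, lay at 0.308 to 1.14 CPM against 23.4 to 30.3 CPM (adjusted p = 1.38e-06). The strain groups of both were widely separated. As with the pseudogenes, both were near 0 in C57BL/6J, and they held 3.34% and 19.6% of the pair in the hybrids. With the reads of copies and partners added, the log2 fold changes were -0.46 (adjusted p = 0.591) and -0.13 (adjusted p = 0.931).

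Nat8f4, one of a cluster of acetyltransferase genes on chromosome 6, was the lower gene of this class. It measured 12.4, 17.4, 15.2 and 17.0 CPM in C57BL/6J and 2.40, 3.15, 4.46, 0.988 and 3.04 CPM in B6D2F1N (log2 fold change -2.46 ± 0.38, adjusted p = 0.00481). Of the 10 genes of the Nat8 cluster it was the DEG, 3 had an unadjusted p under 0.05, all lower, and the median log2 fold change of the cluster was -0.76. H2-Q10, a class I histocompatibility gene, lay at 0 to 0.107 CPM against 0.902 to 5.65 CPM with B6D2F1N 1 highest. Its adjusted p was 0.0429, and it passed in none of the 9 fits that left out a library (adjusted p = 0.0512 to 0.159).

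The pseudogenes included a pair of neighbors on chromosome 17. Tmem181c-ps measured 1.01 to 1.28 CPM in C57BL/6J and 21.5, 17.8, 5.21, 19.9 and 14.1 CPM in B6D2F1N (log2 fold change 3.76 ± 0.43, adjusted p = 0.000284), with B6D2F1N 3 lowest among the hybrids. Tmem181b-ps, whose start lies 175 kb away, measured 39.6, 46.9, 46.1 and 48.5 CPM against 119, 100.6, 57.3, 104 and 92.5 CPM (log2 fold change 1.07, adjusted p = 0.0329) and passed in 1 of the 9 fits without a library. The lower pseudogene, Rps4l, measured 25.6, 18.6, 18.6 and 27.8 CPM against 10.9, 8.70, 8.87, 9.12 and 12.1 CPM (log2 fold change -1.19, adjusted p = 0.0429), and passed in 1 of the 9 fits without a library.

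Reads on pseudogenes made up 0.104 to 0.149% of all counts of the C57BL/6J libraries, against 0.196 to 0.258% for B6D2F1N, without overlap between the strains. The means were 0.132% ± 0.0193 (SD, n = 4) and 0.216% ± 0.0280 (SD, n = 5), and the exact two-sided permutation test gave p = 0.00794, the smallest that 4 against 5 libraries allow (0.0556 adjusted over 7 measures). This share includes the reads of the 46 pseudogene DEGs, called from the same libraries, so it is not independent of them. The other 6 measures gave exact permutation p-values of 0.317 or more. They were the genes detected, the shares of reads on no gene, on more than 1 gene and without a unique alignment, and the shares of counts on protein-coding genes and on other types.

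Among protein-coding genes without a copy, the 25 higher DEGs included components of the cytoskeleton, splicing, lipid metabolism and inhibitory signaling. Cap1 (ENSMUSG00000028656, chr4:122859047-122886056), which encodes an actin-binding partner of adenylyl cyclase, measured 31.2, 29.6, 23.6 and 19.3 CPM in C57BL/6J and 121, 147, 100.3, 147 and 137 CPM in B6D2F1N. Every hybrid library was far above the highest C57BL/6J library, and the means of 25.9 ± 5.46 and 130.5 ± 19.9 CPM gave a log2 fold change of 2.33 ± 0.20 (adjusted p = 1.75e-05).

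Tmem87a (ENSMUSG00000033808, chr2:120355312-120404113), a Golgi membrane protein gene, measured 11.7, 15.3, 5.97 and 9.61 CPM in C57BL/6J and 91.4, 103, 60.0, 87.8 and 67.1 CPM in B6D2F1N. This was a log2 fold change of 2.94 ± 0.28 (adjusted p = 3.10e-05), and every hybrid was clearly higher. Both genes passed in all 9 fits that left out a library.

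The next DEGs by p-value were 2 genes of chromosome 17. Cramp1l (ENSMUSG00000038002), a chromatin-associated gene, measured 17.0, 20.4, 20.3 and 18.8 CPM in C57BL/6J and 64.8, 113, 75.5, 77.5 and 59.9 CPM in B6D2F1N (log2 fold change 2.03 ± 0.21, adjusted p = 0.000108). The C57BL/6J libraries lay close together and the hybrids spread more widely above them. Luc7l (ENSMUSG00000024188), which encodes a splicing factor of the U1 complex, measured 54.4, 75.6, 80.8 and 55.6 CPM against 158, 243, 248, 251 and 242 CPM (log2 fold change 1.78 ± 0.20, adjusted p = 0.000311), with B6D2F1N 1 well below the other hybrids.

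Wdfy1 (ENSMUSG00000073643), an endosomal protein gene on chromosome 1, measured 20.6, 31.1, 21.7 and 25.8 CPM in C57BL/6J and 59.5, 90.6, 93.4, 94.3 and 64.0 CPM in B6D2F1N (log2 fold change 1.70 ± 0.21, adjusted p = 0.000678). Mlycd (ENSMUSG00000074064), the malonyl-CoA decarboxylase of fatty acid metabolism, measured 6.07, 4.98, 3.86 and 4.32 CPM against 24.1, 20.7, 23.6, 17.1 and 18.1 CPM (log2 fold change 2.11 ± 0.26, adjusted p = 0.000690). In neither gene did the strains come close to overlapping, and both passed in all 9 fits without a library.

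Gabra2 (ENSMUSG00000000560, chr5:70957597-71095849) encodes the alpha 2 subunit of the GABA-A receptor, the chloride channel through which GABA inhibits neurons. It measured 273, 445, 295 and 373 CPM in C57BL/6J and 1159, 1475, 717, 1415 and 869.9 CPM in B6D2F1N (means 347 ± 78.2 and 1127 ± 331 CPM, log2 fold change 1.70 ± 0.25, adjusted p = 0.00286). The lowest hybrid libraries were B6D2F1N 3 and B6D2F1N 5, which also had the lowest excitatory marker sums, and both still exceeded every C57BL/6J library. Of 14 GABA-A receptor genes, Gabra2 was the DEG, 2 had an unadjusted p under 0.05, and the median log2 fold change was -0.07. The neighboring subunit gene Gabrb1 stood at 359 ± 71.6 and 383 ± 121 CPM (log2 fold change 0.09, adjusted p = 0.970).

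Scn4b, which encodes a beta subunit of voltage-gated sodium channels and is abundant in striatal neurons, measured 4.79, 9.29, 11.7 and 6.23 CPM in C57BL/6J and 70.7, 49.1, 22.2, 32.9 and 35.8 CPM in B6D2F1N (log2 fold change 2.39 ± 0.35, adjusted p = 0.00286). All hybrids were higher, and they varied more than the C57BL/6J mice. Of 8 striatal projection neuron markers edgeR and DESeq2 called 0, 0 had an unadjusted p under 0.05, and their sums of 314 to 901 CPM in C57BL/6J and 271 to 1245 CPM in B6D2F1N overlapped. Of the 8, 7 had a log2 fold change above 0, with a median of 0.45. Adora2a, a marker of striatal neurons, reached 60.1 CPM in B6D2F1N 1, the library with the highest Scn4b, and lay at 4.60 to 20.0 CPM in the other hybrids and at 4.86 to 14.8 CPM in C57BL/6J. The part of striatal RNA in the Scn4b difference was not tested.

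Serpina3m (chr12:104338486-104394257), a serine protease inhibitor gene that overlaps its relative Serpina3k on the same strand, measured 0, 0, 0.0439 and 0.109 CPM in C57BL/6J and 4.32, 3.11, 2.01, 2.83 and 2.56 CPM in B6D2F1N (log2 fold change 6.08 ± 0.96, adjusted p = 0.00611). It was nearly absent from C57BL/6J and low in the hybrids. Of 7 tested genes of the Serpina3 cluster it was the DEG, while 5 had an unadjusted p under 0.05, all higher, and DESeq2 called 4. The median log2 fold change of the cluster was 4.85. Serpina3c, with 0 counts in every C57BL/6J library and 0.301 to 1.51 CPM in the hybrids, did not pass (adjusted p = 0.134). Serpina3n, the astrocyte-enriched member, stood at 66.0 ± 12.0 and 116 ± 42.5 CPM (adjusted p = 0.429).

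Further higher genes of signaling and adhesion were Arl5a, a small GTPase of the Golgi (log2 fold change 1.53 ± 0.24, adjusted p = 0.00530), and Rasal2, an inhibitor of Ras (1.33 ± 0.21, adjusted p = 0.00545). Tgfbr3, the co-receptor betaglycan, measured 5.17 to 13.3 CPM in C57BL/6J and 21.9 to 33.9 CPM in B6D2F1N (1.70 ± 0.27, adjusted p = 0.00769). Cdh18, a neuronal cadherin, measured 6.55 to 9.67 CPM against 16.7 to 38.0 CPM (1.70 ± 0.28, adjusted p = 0.00915). In all of them the strains were separate, and these genes passed in 8 or 9 of the 9 fits without a library.

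The remaining higher protein-coding DEGs were nearer the threshold. They were Sirt4, a mitochondrial sirtuin, Pam, which amidates neuropeptides, Ptprg, a receptor phosphatase, Mark3, a microtubule-related kinase, Alad, an enzyme of heme synthesis, Lsm12, Mal2, a transcytosis protein, Edem1, of endoplasmic reticulum quality control, Marf1, Supt16, a histone chaperone subunit, Scg5, the chaperone of prohormone convertase 2, and Ip6k2, an inositol phosphate kinase. Their log2 fold changes lay between 0.80 for Scg5 and 1.5 for Mal2 and their adjusted p between 0.0210 for Sirt4 and 0.0489 for Ip6k2, and each passed in 1 to 3 of the 9 fits without a library. Mal2 was the DEG whose strains overlapped, with 285, 618, 415 and 441 CPM in C57BL/6J and 1264, 1518, 561, 1572 and 1315 CPM in B6D2F1N, where B6D2F1N 3 fell below C57BL/6J 2. Scg5 was among the most evenly measured, with 668 to 737 CPM in C57BL/6J and 1152 to 1290 CPM in B6D2F1N.

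The 8 lower protein-coding genes without a copy were a mixed group, and they include Atp6v0c, given above beside Atp6v0c-ps2. Tmem267, a membrane protein gene, measured 22.0, 37.2, 37.0 and 51.1 CPM in C57BL/6J and 13.4, 10.9, 6.17, 12.4 and 13.5 CPM in B6D2F1N (log2 fold change -1.71 ± 0.28, adjusted p = 0.00782). Slc5a5, the sodium iodide symporter, measured 49.95, 40.7, 36.5 and 45.1 CPM against 15.7, 16.4, 24.6, 18.4 and 18.3 CPM (-1.21 ± 0.20, adjusted p = 0.00915). Stk25, a kinase of neuronal polarity, measured 254, 225, 290.0 and 214 CPM against 125.97, 114, 106, 145 and 124 CPM (-0.999 ± 0.167, adjusted p = 0.00987). The strains of these genes were apart, and each passed in 7 or 8 of the 9 fits without a library.

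Pkd2l1, a calcium-permeable channel known from cells that contact the cerebrospinal fluid, measured 3.20, 0.564, 1.89 and 1.20 CPM in C57BL/6J and had 0 counts in all 5 hybrids. It was at least 12.3-fold lower in B6D2F1N (adjusted p = 0.0268), and passed in 3 of the 9 fits without a library. Beside it, the summed level of 7 ependymal markers ran from 6.21 to 9.83 CPM in C57BL/6J and from 8.13 to 16.1 CPM in B6D2F1N, with 0 of 7 called by edgeR or DESeq2 and 0 at an unadjusted p under 0.05.

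F2rl2, a protease-activated receptor, measured 16.8 to 29.8 CPM in C57BL/6J and 4.27 to 11.1 CPM in B6D2F1N (log2 fold change -1.54, adjusted p = 0.0298). Fcrls, a gene of microglia, measured 38.9, 50.7, 52.6 and 48.0 CPM against 26.7, 11.6, 9.83, 13.7 and 24.4 CPM (-1.46 ± 0.28, adjusted p = 0.0337). The strains were apart in both genes, and F2rl2 passed in 4 and Fcrls in 2 of the 9 fits without a library. Beside Fcrls, 7 of 8 other microglial markers had log2 fold changes below 0 and their sums were 869 to 1112 CPM in C57BL/6J and 575 to 884 CPM in B6D2F1N. None of the 8 passed with edgeR, 2 had an unadjusted p under 0.05 (9% of all genes had), and DESeq2 called C1qb, at 119 ± 10.6 and 73.9 ± 11.5 CPM (log2 fold change -0.68, adjusted p = 0.143 with edgeR). The part of microglial content in the Fcrls difference was not tested.

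Ide (ENSMUSG00000056999, chr19:37268743-37337852), the insulin-degrading enzyme, measured 51.3, 65.5, 67.9 and 37.1 CPM in C57BL/6J and 23.6, 29.5, 29.3, 24.3 and 28.4 CPM in B6D2F1N. C57BL/6J 4 was the nearest to the hybrids, and the log2 fold change was -1.04 ± 0.20 (adjusted p = 0.0349). The call held in 1 of the 9 fits without a library, with adjusted p between 0.0168 and 0.180. Ide, Wdfy1 and Gabra2 belong to a list of 7 tested genes known to differ between C57BL/6 substrains, in which these 3 were DEGs and the median log2 fold change was -0.03.

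**Figure D3:**
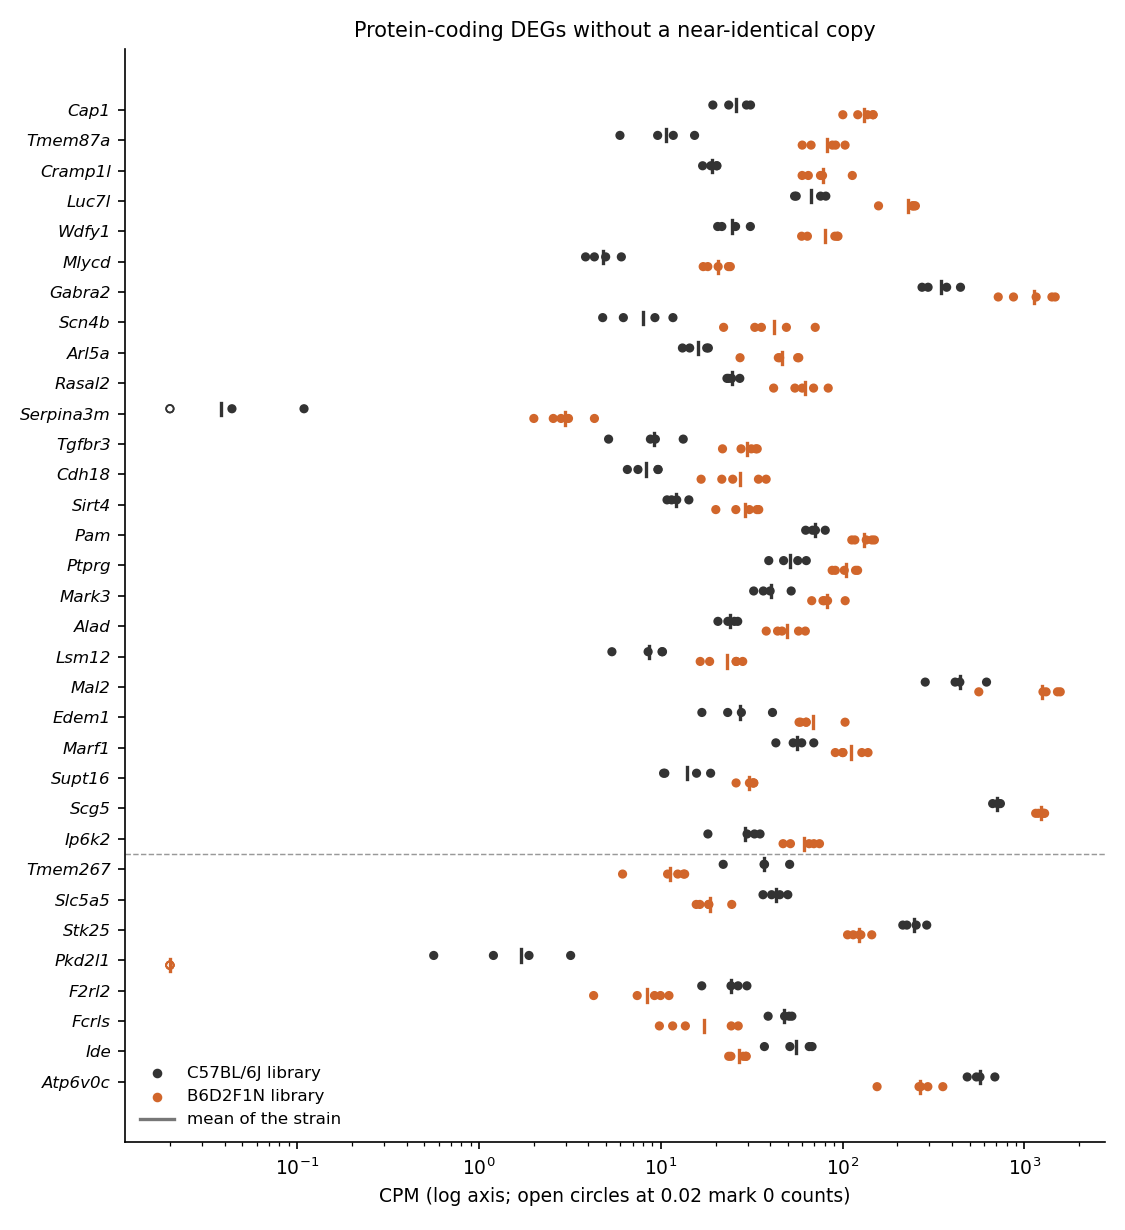
CPM (log axis) of the 33 protein-coding DEGs without a copy in each of the 9 libraries, with open circles at 0.02 for 0 counts and a vertical tick at the mean of each strain. The 25 genes above the dashed line were higher and the 8 below it lower in B6D2F1N, and Mal2 is the gene whose strains overlap.

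Of the 6 DEGs of other types, A330076H08Rik (ENSMUSG00000109321, chr7:61930137-61982358), a noncoding RNA gene, was lower in the hybrids and had the smallest p. It measured 34.3, 31.0, 37.8 and 38.0 CPM in C57BL/6J and 5.25, 8.60, 5.92, 8.49 and 6.51 CPM in B6D2F1N (log2 fold change -2.34 ± 0.23, adjusted p = 4.74e-05), with narrow ranges in both strains. AI504432 measured 21.8 to 32.4 CPM against 58.3 to 85.9 CPM (1.32 ± 0.20, adjusted p = 0.00382). The other 4, 1700023H06Rik, Gm35021, Gm43461 and Gm26793, were higher in the hybrids with log2 fold changes of 2.19 to 4.67.

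Many DEGs share their place in the genome with another gene. Of the 90, 39 overlapped another annotated gene, 21 on the same strand and 26 on the other, and among the protein-coding DEGs without a copy 18 of 33 did so. Cap1 overlaps Ppt1, Tmem87a overlaps Ganc, Stk25 overlaps Farp2 and Supt16 overlaps Rpgrip1, each on the other strand. These overlaps are of whole gene spans, introns included, and how often tested genes in general overlap another is not given here. With overlapping genes counted, 4.17% of the exon windows of Cap1 aligned to another gene. The shares were 2.40% for Tmem87a, 17.5% for Stk25 and 18.8% for Supt16. The strand setting of the counting is not given in the sources used here, so that reads from a stretch shared with such a partner cannot be told apart.

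The DEGs were spread over the genome. They lay on every autosome except chromosome 10 and on X, with 10 each on chromosomes 1 and 2, 7 each on 4 and 5, 6 each on 8, 12 and 17, and 1 or 2 on 9, 11, 15, 16, 18 and 19. The share of tested genes that were DEGs ran from 0 on chromosome 10 to 0.645% on X, where all 5 were pseudogenes. On chromosome 10, edgeR called 0 of 1184 genes, 92 had an unadjusted p under 0.05, where 9% of all genes had, and DESeq2 called 5. On chromosome 19 both DEGs, Pkd2l1 and Ide, were lower in B6D2F1N. All DEGs were higher on chromosomes 2, 4, 5, 9, 11, 12, 14, 15, 16, 18 and X, as were 79 of the 90 in the whole genome.

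DEGs that lay within 1 Mb of each other formed 6 pairs and no longer run. On chromosome 17 the starts of Atp6v0c and Cramp1l lie 797 kb apart, and these genes differed in opposite directions, as did F2rl2 and Gm20075 on chromosome 13, 382 kb apart. The other 4 pairs, each with both members higher, were Tmem181b-ps and Tmem181c-ps, Supt16 and Gm4742 (209 kb), Mpc1-ps and Mark3 (716 kb), and Gm12892 and Cap1 (851 kb).

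**Figure D4:**
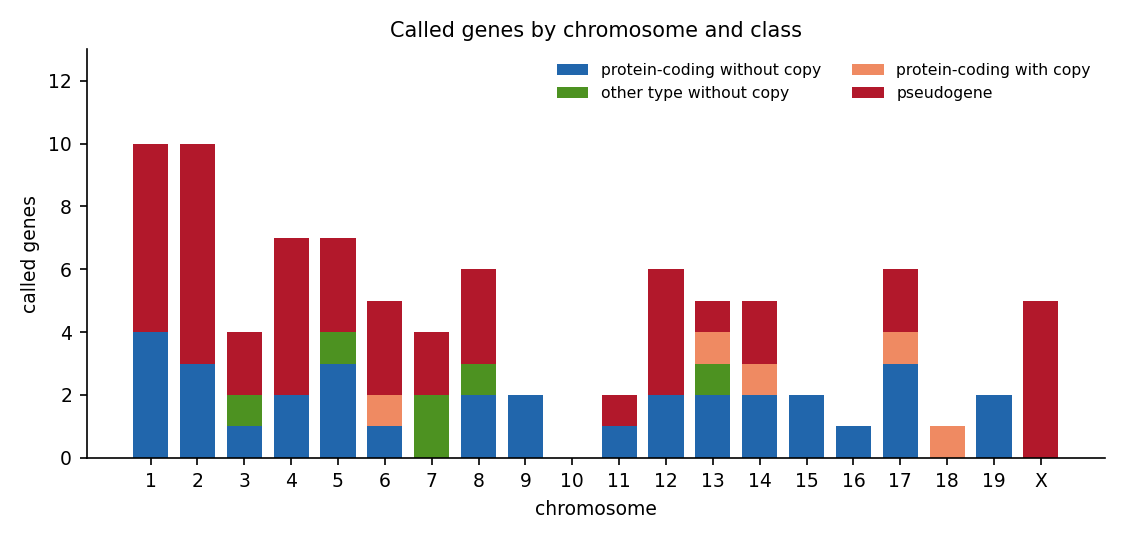
Number of DEGs (vertical axis) on each chromosome (horizontal axis), stacked by class, with genes higher and lower in B6D2F1N counted together. Chromosomes 1 and 2 hold 10 each, chromosome 10 holds 0, and the 5 on X are pseudogenes.

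Other gene groups of amygdala function and strain background held few DEGs or none. Of 17 ionotropic glutamate receptor genes edgeR called 0, 3 had an unadjusted p under 0.05 (9% of all genes had), all higher, and DESeq2 called 1, Grin2b, which encodes an NMDA receptor subunit. Grin2b stood at 245 ± 50.4 and 529 ± 201 CPM (log2 fold change 1.11, adjusted p = 0.189 with edgeR), and the median log2 fold change of the list was 0.05. Of 16 genes of stress and monoamine signaling (median 0.01) edgeR and DESeq2 called 0, with 2 at an unadjusted p under 0.05. Of 13 immediate early genes (median -0.19) both called 0, with 1 at an unadjusted p under 0.05.

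Of 20 antigen presentation genes (median -0.28) edgeR called 0, 7 had an unadjusted p under 0.05 beside 9% of all genes, 2 higher and 5 lower, and DESeq2 called 2, H2-Q4 and Tap1. Of 23 interferon response genes (median -0.34) both tools called 0, with 1 higher and 4 lower at an unadjusted p under 0.05. Of 18 glutathione metabolism genes (median 0.07) and of 3 genes of the Glo1 segment (median 0.64) edgeR called 0, with 2 and 1 at an unadjusted p under 0.05, and DESeq2 called Glo1 in each. Of 5 genes known for DBA/2 variants (median -0.19) both called 0, with 2 at an unadjusted p under 0.05.

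Among the cell type markers beside those already given, none passed. Of the 10 inhibitory neuron, 8 astrocyte and 6 choroid plexus markers, edgeR and DESeq2 called 0 in each list, with 1 higher, 1 higher and 1 lower, and 2 higher and 1 lower at an unadjusted p under 0.05, where 9% of all genes were. Gfap, the filament gene of reactive astrocytes, stood at 132 ± 99.9 and 44.7 ± 33.4 CPM (log2 fold change -1.57, adjusted p = 0.455), and Gja1, the astrocytic connexin gene, at 633 ± 102 and 978 ± 206 CPM (0.63, adjusted p = 0.471). In the choroid plexus list Kl had a log2 fold change of 2.43, Prlr of 2.01 and Otx2 of -4.86 (adjusted p = 0.525 to 0.539), the last from 1 C57BL/6J library at 2.92 CPM. Of the 8 excitatory neuron, 8 oligodendrocyte, 8 endothelial cell and 7 meningeal fibroblast markers both called 0, with 0 at an unadjusted p under 0.05. Choroid plexus sums were 9.70 to 13.3 CPM in C57BL/6J and 11.9 to 52.2 CPM in B6D2F1N, and oligodendrocyte sums 7694 to 10013 CPM and 5514 to 14378 CPM. A list of 12 tested genes that the study itself tabulated from these samples held 9 DEGs, all higher, and is not independent evidence of its direction. The other 3, Gm11273, Myo19 and Traf3ip1, had log2 fold changes of 2.33, 1.8 and 0.93 with adjusted p of 0.150, 0.153 and 0.185.

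The same strains were compared in 3 further sets of libraries, the posterior libraries of the same 9 mice, and the anterior (2 C57BL/6J, 5 B6D2F1N) and posterior (4 and 6) libraries of enriched mice. Of the 90 DEGs, 89, 88 and 90 had the same direction there, and 58, 15 and 62 were called in that direction, where 0.373%, 0.0639% and 0.394% of all genes were called. Among them were 42, 9 and 43 of the 46 pseudogenes and 12, 3 and 12 of the 33 protein-coding genes without a copy. In all 3 sets 14 were called, 9 of them pseudogenes, and in none 21, of which 16 were protein-coding genes without a copy. The enriched anterior comparison rests on 2 C57BL/6J libraries.

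Cap1 had log2 fold changes of 2.81, 2.72 and 2.09 in the standard posterior, enriched anterior and enriched posterior libraries (adjusted p = 3.41e-05, 0.00214 and 6.47e-05). Tmem87a had 3.04, 3.87 and 3.16, and these were the protein-coding genes without a copy that passed in all 3. A330076H08Rik had -2.71, -3.05 and -2.17 and also passed in each. Gabra2 had 1.49, 2.15 and 2.27 with adjusted p of 0.265, 0.477 and 0.00248.

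Other genes were less alike across the sets. Ide had -1.36, 0.08 and -0.35, with adjusted p of 0.00235, 1.00 and 0.813. Pkd2l1, lower in the hybrids here, had a log2 fold change of 0.92 in the posterior libraries of the same mice (adjusted p = 0.942) and was the DEG with the opposite direction there. Scn4b had 4.70, 0.22 and 0.29, and passed in none of the 3. Marf1 had 0.51, -0.25 and 0.16.

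The difference between these comparisons was tested by interaction terms. For strain by portion, over both portions of the standard-housed mice with the mouse as a block, edgeR called 0 of 27316 genes. An unadjusted p under 0.05 was reached by 901, and 9 of the 90 DEGs were among them. The smallest portion p among the DEGs was that of Pkd2l1 (unadjusted p = 0.00515), followed by Tgfbr3 (interaction 1.14, unadjusted p = 0.00893), and both had an adjusted p of 1. For strain by housing in the anterior libraries, edgeR called 0 of 26353, 1576 had an unadjusted p under 0.05, 10 of them DEGs, and DESeq2 called 11, none of them a DEG. The smallest housing p among the DEGs was that of Marf1 (interaction 1.25, unadjusted p = 0.000618, adjusted p = 0.814). Ide (-1.10, unadjusted p = 0.0370) and Scn4b (2.20, unadjusted p = 0.0231) also had differences that did not pass, and these are standard minus enriched log2 fold changes.

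**Figure D5:**
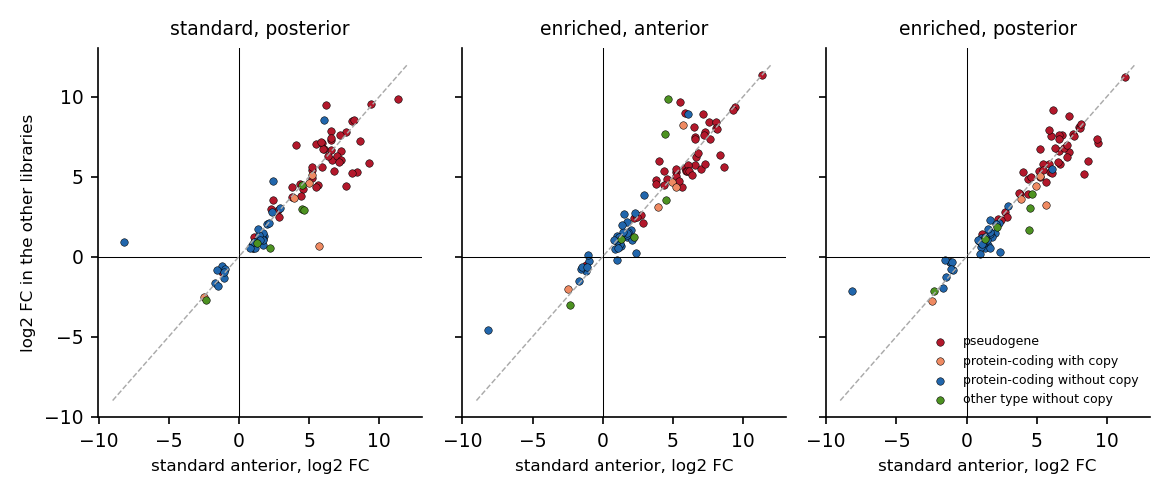
Log2 fold changes of the 90 DEGs in the standard posterior, enriched anterior and enriched posterior libraries (vertical axes) against those in the standard anterior libraries (horizontal axis), colored by class, with the dashed line marking equal values. Of the 90 points, 89, 88 and 90 have the same sign on both axes.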

How the data were processed

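The authors deposited, per library, the read counts that HTSeq 0.11.2 assigned to 52636 Ensembl genes, after Trimmomatic 0.38, HISAT2 2.1.0 and SAMtools 1.8 on GRCm38, per the submitters' processing notes. These counts were neither normalized nor filtered. The annotation release and strand setting are not given in the sources used here. HTSeq's tallies of unassigned reads (14.0 to 20.9% on no gene, 3.30 to 3.74% ambiguous, 7.09 to 10.3% not unique) were left out. Lower bounds of folds against 0 counts used 3 counts per library and cover counting error only, since reads carry no molecular identifiers.

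Of the gene identifiers, 52489 were found in GENCODE M21. Genes whose counts summed to 10 or more over the 9 libraries were tested with edgeR 4.0.16 in R 4.3.3 (TMM, quasi-likelihood F test, no covariate), with p adjusted by Benjamini-Hochberg and a threshold of 0.05. The standard error is the log2 fold change divided by the square root of F. Copies were found with bwa 0.7.19, with 1 window of 72 bases every 36 bases, aligned to other genes that do not overlap. A gene and its copies were also summed.

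DESeq2 1.42.0, its size factors, other filters, robust fitting, 1 fit of 4 groups, an optimist term, other limits for a copy and leaving out each library were the alternatives. Strains are different mice with 1 library each, so p-values measure the spread between mice together with that of dissection and library. Mice shared cages with others of their strain, as the study states, and the cage was not used here. The posterior libraries come from the same 9 mice, as the study states, and the mouse was the block in the portion interaction. The tests were checked on simulated data.

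The members, gene lists and tests were chosen with earlier results of these data known. Named genes were those with the smallest p in each class, DEGs of the gene lists, neighbors within 1 Mb, and the genes tabulated by the study. The list members shown beside them, Hcrt, Pmch, Cartpt, Gal, Th and Prl were chosen after their values were seen.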

Additional observations from a re-analysis of the deposited data

Results flagged for a closer look

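Of 80 sets of values checked within the strains, 14 had 1 library farther from the rest than Dixon's limit. Chance gives this in about 1 of 20 sets. That rate does not apply to this count, because the sets of Hcrt, Pmch, Cartpt, Gal, Th and Prl were chosen after their values were seen. Values that set 1 library apart stand beside the median of its strain. In B6D2F1N 3, Hcrt measured 3771 CPM (median 0.180), Pmch 2294 CPM (median 1.08), Cartpt 186 CPM (median 3.37), Gal 83.9 CPM (median 0.719) and Th 25.6 CPM (median 0.950), and these genes were chosen after their values were seen. Hcrt encodes orexin and Pmch melanin-concentrating hormone. None of them passed between strains (edgeR adjusted p = 0.489 to 0.539). Prl measured 85.2 CPM in B6D2F1N 5 (median 0). In C57BL/6J 1, Prl measured 4.53 CPM (median 0.164) and Th 2.08 CPM (median 0.205).

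Luc7l, a DEG, measured 158 CPM in B6D2F1N 1 (median 243), still above every C57BL/6J library, and it passed in all 9 fits without a library. Mitochondrial genes took 7.69% of the counts in B6D2F1N 5 (median 4.39%) and 3.83% in C57BL/6J 2 (median 5.12%). In C57BL/6J 2, protein-coding genes took 96.9% (median 95.9%) and other types 3.03% (median 3.96%). Reads without a unique alignment were 10.3% in B6D2F1N 5 (median 8.08%).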

How the results depend on the processing

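The count of 90 DEGs lay between 60 and 83 when a library was left out, at 254 with DESeq2 and at 24 with copies summed. It was 90 with DESeq2's size factors, 104 with filterByExpr, 102 without a minimum, 91 with robust fitting, 91 in 1 fit of 4 groups and 63 with an optimist term. In all 16 settings 50 of the 90 passed, and of 736 values for 46 named genes 613 stayed on their side of the threshold, 123 no longer passed and 0 reversed. DEGs with a copy numbered 48, 31 with identical windows, 42 with 50% of windows and 50 with overlapping genes counted, the last chosen after seeing the data. The housing interaction gave 11 genes with DESeq2. No paired analysis of the strains was possible because they are different mice. For strain by portion, the fit with no replicate block called 0, as did the fit with the mouse as block. Without 1 library, B6D2F1N minus C57BL/6J was -240.4 to 623 genes detected (316 with all), -0.00564 to 0.105 percentage points for ambiguous reads (0.0546), -0.461 to 0.312 for reads without unique alignment (0.00799) and 0.0733 to 0.0894 for pseudogene counts (0.0838). With 4 and 5 mice, a gene that did not pass may still differ between the strains.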
